A study of Mus musculus with 15 samples.

Results

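Livers that lacked JNK1 were compared with livers that lacked JNK2, whether or not the hepatocytes also lacked NEMO. Of the 15 arrays of the study, 12 entered the comparison by their genotype labels: 6 Jnk1-null arrays (3 labelled Jnk1 KO and 3 NEMO/Jnk1 DKO) and 6 Jnk2-null arrays (3 labelled Jnk2 KO and 3 NEMO/Jnk2 DKO). The other 3 arrays were controls with a floxed, intact NEMO gene (NEMO f/f, called WT here) and showed which side departed from control. Jnk1-/- and Jnk2-/- were constitutive deletions present in every cell. In the DKO mice the floxed NEMO gene was also removed by a Cre transgene under the albumin promoter, which is active in hepatocytes (NEMOΔhepa). All mice were C57BL/6, 8 weeks old, kept on standard chow and labelled male, and each gave 1 array of whole-liver RNA on an Affymetrix whole-transcript platform. No group analysed here lacked NEMO alone. The labels name no second line of either Jnk allele, so the effect of an allele and that of any other sequence its line carries cannot be told apart.

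JNK1 and JNK2, encoded by Mapk8 and Mapk9, are stress-activated MAP kinases that phosphorylate c-Jun and other AP-1 members. Both are made in hepatocytes and in the immune and stromal cells of the liver, and they share upstream kinases and most known substrates. NEMO, encoded by Ikbkg, is the regulatory subunit of the kinase complex that activates NF-kB. Its loss from hepatocytes is known to cause cell death, regeneration and chronic inflammation of the liver. The acute phase response is the change in secreted liver proteins, such as serum amyloid A, haptoglobin and fibrinogen, that follows inflammatory signals.

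Values are log2 expression levels, and differences are log2 differences of group means with the standard error (SE) of the limma fit to all 15 arrays. The difference between sides is the mean of 2 differences, Jnk1 KO minus Jnk2 KO and NEMO/Jnk1 DKO minus NEMO/Jnk2 DKO. A gene was called at a limma adjusted p under 0.05. Alb, Apoa1, Ttr and Hnf4a, which define hepatocytes, lay between 9.70 and 13.21 in every array.

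Some arrays went against their labels. Jnk1 KO replicate 1 and Jnk2 KO replicate 3, called the 2 doubted arrays below, read 10.12 and 9.70 for Ly6d and 8.66 and 8.20 for Mmp12. The other 4 KO arrays stood between 4.76 and 5.35 for Ly6d and between 3.69 and 3.94 for Mmp12, and the 6 DKO arrays between 7.88 and 10.48 and between 7.54 and 8.96. The 3 Jnk1-null arrays Jnk1 KO replicate 1 and NEMO/Jnk1 DKO replicates 1 and 2 had the Xist and Y-linked levels of a female, with Xist between 8.68 and 9.17 against 2.40 to 2.82 in the other 12 arrays. No Jnk2-null or WT array had that pattern. The comparison was therefore also run in 5 further settings: without the doubted arrays, with a term for the pattern, with both changes, leaving out the 3 female-pattern arrays, and leaving out both kinds. The last 2 settings keep only replicate 3 of the NEMO/Jnk1 DKO group. For a call lost there, the female pattern and the smaller group cannot be told apart. The labels give each mouse its own number but name no litter, and p-values measure only the spread between these mice.

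The Jnk1-null and Jnk2-null livers differed in 109 of 19938 genes (0.547%), of which 65 (0.326% of all genes) were higher and 44 (0.221%) lower in the Jnk1-null livers. The median size of the difference among them was 0.71, and 33 genes differed by more than 1. In 90 of the 109 the 6 Jnk1-null arrays did not overlap the 6 Jnk2-null arrays, against 173 of all genes (0.868%). The choice of the 109 by the difference between these same arrays favours a lack of overlap. Beside Mapk9 itself, the largest differences with no overlap were those of Gdpd3 and Abcb1b, higher in the Jnk2-null livers, and of Mme, higher in the Jnk1-null livers. Without the doubted arrays 223 genes (1.12%) were called, 95 of the 109 among them, and without the female-pattern arrays 59 (0.296%), 35 of the 109 among them. The sex term gave 76 (0.381%, 47 of the 109), the sex term without the doubted arrays 117 (0.587%, 60 of the 109), and leaving out both kinds of array 116 (0.582%, 58 of the 109). Called in all 5 settings were 31 genes, 16 higher and 15 lower, and 14 were called in none.

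Mapk9 checked the Jnk2 labels. It read 7.43, 7.56 and 7.67 (lowest, median and highest) in the Jnk1-null arrays, 2.39, 2.80 and 3.28 in the Jnk2-null arrays and 7.41 to 7.65 in WT. The sides were far apart in every array (difference 4.76, SE 0.11, limma adjusted p = 8.91e-12). All Jnk2-null arrays lay below 3.69, the 40th percentile of all values, taken here as the dim level, and against that level Mapk9 was at least 14.5-fold higher in the Jnk1-null livers. Mapk8 read 5.87, 6.09 and 6.53 in the Jnk1-null arrays, 6.58, 6.76 and 6.90 in the Jnk2-null arrays and 6.98 to 7.03 in WT. The 2 sides did not overlap, but the Jnk1-null level lay only 1.53-fold below the Jnk2-null level (difference -0.61, SE 0.10, limma adjusted p = 0.0135). Which part of Mapk8 the allele removes is not given in the sources used here, so its remaining signal checks the label less directly than that of Mapk9. Without the female-pattern arrays the Mapk8 difference was -0.39 (adjusted p = 0.16). Ikbkg, the NEMO gene, read 6.75 and 6.24 in the doubted arrays, 7.03 to 7.23 in the other 4 KO arrays and 6.18 to 6.85 in the DKO arrays. It was not called between the sides (0.18, SE 0.16, limma adjusted p = 0.846).

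**Figure D1:**
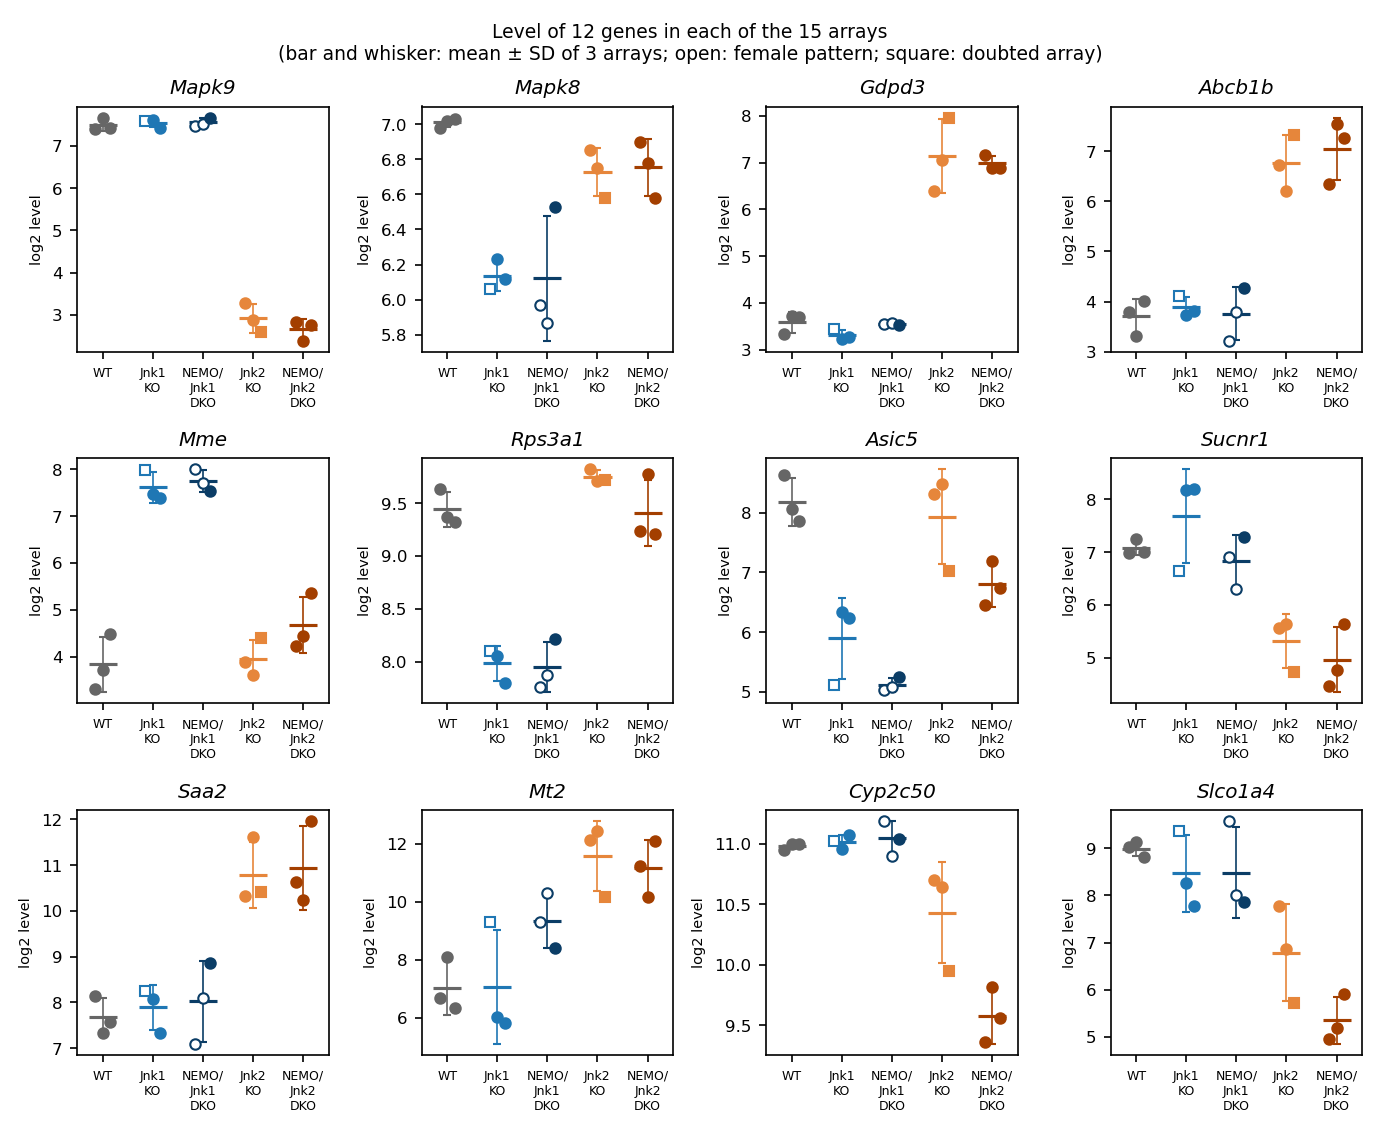
Log2 level of 12 genes (vertical axes) in the 15 arrays by group, with bars at the group mean and whiskers of 1 SD over 3 arrays, open symbols for the female pattern and squares for the doubted arrays. Mapk9 is low in all 6 Jnk2-null arrays, Gdpd3 and Abcb1b are high only there, and Mme is high in all 6 Jnk1-null arrays, at 7.39 or above, against 5.35 or below in the others.

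The Jnk2-null livers departed farther from the WT livers in most of the 109 called genes. For 92 of the 109 genes the Jnk2-null mean was farther from WT than the Jnk1-null mean, and for 17 the reverse held. The farther side was not counted over all genes, and the 109 were chosen by the difference between the sides. The median distance from WT was 0.60 on the Jnk2-null side and 0.16 on the Jnk1-null side. Both distances use the same 3 WT arrays. Over all genes, 430 (2.16%) were called between Jnk2-null and WT and 7 (0.0351%) between Jnk1-null and WT, with 3557 and 2693 at an unadjusted p under 0.05. Without the doubted arrays the counts were 1152 and 106. Of the 109 genes, 66 were called against WT on the Jnk2-null side and 4 on the Jnk1-null side: Mme, Rps3a1, Asic5 and Mapk8. The count of 66 became 37, 32 and 34 without WT replicate 1, 2 or 3, while the 92 genes farther from WT on the Jnk2-null side became 90 to 94 when any 1 array was left out. In the KO arrays alone, 94 of the 109 were farther from WT on the Jnk2-null side.

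**Figure D2:**
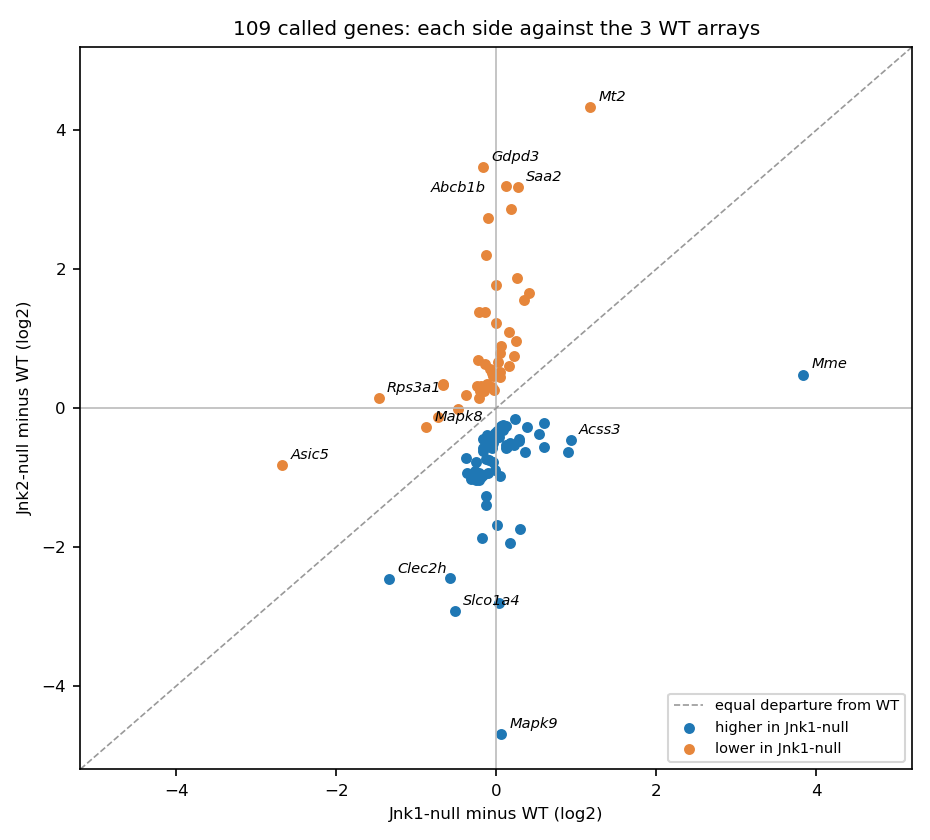
Each point is 1 of the 109 called genes, with the Jnk1-null minus WT difference on the horizontal axis and the Jnk2-null minus WT difference on the vertical axis (both log2). Most points lie near 0 horizontally and spread vertically. Mme at 3.84 and Asic5 at -2.68 on the horizontal axis stand apart.

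Gdpd3, Abcb1b and Atp11a were higher in the Jnk2-null livers than in either the Jnk1-null or the WT livers. Gdpd3, a glycerophosphodiester phosphodiesterase, read 3.22, 3.48 and 3.57 in the Jnk1-null arrays, 6.39, 6.97 and 7.96 in the Jnk2-null arrays and 3.33 to 3.72 in WT. It was at least 10.3-fold higher in the Jnk2-null livers against the dim level of 3.69, under which all Jnk1-null arrays lay (difference -3.63, SE 0.19, limma adjusted p = 2.78e-07), and its Jnk1-null minus WT difference was -0.16. Abcb1b, which encodes a P-glycoprotein drug exporter, read 3.22, 3.80 and 4.27 against 6.21, 7.0 and 7.54, with WT at 3.32 to 4.01 (8.46-fold, difference -3.08, SE 0.24, limma adjusted p = 1.57e-05). Atp11a, a phospholipid flippase, read 5.23, 5.42 and 5.58 against 6.33, 7.10 and 7.47, with WT at 5.02 to 5.26 (difference -1.61, SE 0.14, limma adjusted p = 4.00e-05). In each of these 3 genes every Jnk2-null array stood above every Jnk1-null and WT array.

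The same pattern of a raised Jnk2-null side held for Abhd1, Tmc5, Pik3c2g and Ift57. Abhd1, of the alpha/beta hydrolase family, stood at 4.93 to 5.37 in the Jnk1-null arrays, 7.23 to 8.33 in the Jnk2-null arrays and 4.98 to 5.74 in WT. Tmc5, a transmembrane channel-like protein, stood at 3.19 to 4.01, 4.46 to 6.85 and 2.92 to 3.54. Pik3c2g, a class II phosphoinositide 3-kinase made in liver, stood at 5.31 to 5.80, 6.47 to 7.31 and 5.29 to 5.86. Ift57, a subunit of the intraflagellar transport complex of cilia, stood at 3.77 to 4.59, 4.75 to 5.97 and 3.73 to 4.07. Their differences were -2.33, -2.67, -1.22 and -1.20, and all of them were called in each of the 5 settings. Serpina7, which encodes thyroxine-binding globulin, read 5.08 to 6.85 in the Jnk1-null and 7.02 to 8.19 in the Jnk2-null arrays (-1.52), and lost its call without the female-pattern arrays (adjusted p = 0.0625).

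Acute phase genes were higher in the Jnk2-null livers. Of 22 measured acute phase genes 6 were called, all lower in the Jnk1-null livers (Saa2, Saa1, Steap4, Fga, Hp and Fgg), where 0.221% of all genes were called in that direction. None of the 22 had a difference above 0. The count was 9 without the doubted arrays, 4 without the female-pattern arrays (with Saa2 and Steap4 as the only ones of the 6) and 4 to 9 over all 28 alternatives. Their median difference was -0.56, against 0.006 over all genes, and 17 of the 22 had an unadjusted p under 0.05, against 8.95% of all genes. The median was -0.73 without the doubted arrays and -0.62 without the female-pattern arrays. The mean log2 level of the list lay between 9.44 and 9.88 in the Jnk1-null arrays, 10.19 and 10.88 in the Jnk2-null arrays and 9.60 and 9.69 in WT, so the sides did not overlap on this mean. Against WT, the median difference of the list was -0.05 on the Jnk1-null and 0.30 on the Jnk2-null side. Not every member was raised over WT on the Jnk2-null side, and some lay below it. In whole-liver RNA, a change in the number of cells that make a transcript and a change in the amount per cell cannot be told apart.

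Among the members, Saa2, a serum amyloid A, read 7.10, 8.08 and 8.87 in the Jnk1-null arrays, 10.23, 10.52 and 11.97 in the Jnk2-null arrays and 7.34 to 8.14 in WT (7.52-fold, difference -2.91, SE 0.35, limma adjusted p = 0.00149). Its neighbour and close paralog Saa1 read 5.27, 6.77 and 7.42 against 8.63, 9.12 and 10.51 (difference -2.83, SE 0.40, limma adjusted p = 0.00421), and lost its call without the female-pattern arrays (-2.10, adjusted p = 0.0808). Probes of such paralogs can share transcripts, which holds as well for the Cyp2c, Akr1c, Clec2 and metallothionein genes named here. Steap4, a metalloreductase induced in inflamed tissue, read 8.92, 9.43 and 9.66 against 10.22, 10.42 and 11.38, with WT at 8.82 to 9.04 (difference -1.25, SE 0.16, limma adjusted p = 0.00194). The fibrinogen chains Fga and Fgg differed by -0.84 and -0.29, and haptoglobin (Hp) by -0.57. Without the female-pattern arrays these were -0.73, -0.27 and -0.52 and were not called (adjusted p = 0.056, 0.244 and 0.144), and Fgg was called in 4 of 28 alternatives. For Hp the Jnk1-null side was the one farther from WT (-0.38 against 0.19 on the Jnk2-null side). Lcn2, an iron-siderophore binding protein, read 5.70, 7.36 and 9.28 against 8.75, 9.67 and 11.57 and was not called (-2.42, SE 0.57, limma adjusted p = 0.0928). It was called without the doubted arrays (-2.97, adjusted p = 0.00951).

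Metallothioneins and zinc transport had 2 called members of 9 measured, both lower in the Jnk1-null livers, and 0 to 3 over the alternatives. Over all genes 0.221% were called in that direction. The median difference of the list was -0.03, against 0.006 over all genes. Mt2, a metal-binding protein, read 5.83, 8.86 and 10.31 in the Jnk1-null arrays, 10.16, 11.66 and 12.44 in the Jnk2-null arrays and 6.34 to 8.10 in WT. The sides overlapped where NEMO/Jnk1 DKO replicate 2 (10.31) passed Jnk2 KO replicate 3 (10.18) and NEMO/Jnk2 DKO replicate 2 (10.16). The difference was -3.16 (8.97-fold, SE 0.63, limma adjusted p = 0.0411), and -4.08 without the doubted arrays. It was called in the 5 settings but in 14 of all 28 alternatives, with adjusted p from 2.84e-04 to 0.111. The zinc importer Slc39a14 differed by -0.92 (SE 0.19, limma adjusted p = 0.0434) and was called in 10 of 28 alternatives (adjusted p up to 0.201), while Mt1 was not called with all arrays (-2.36, limma adjusted p = 0.0928) but was without the doubted arrays (-3.14, adjusted p = 0.0023).

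Neutrophil markers were read beside these groups, because such cells carry some of the same transcripts. None of the 13 measured markers was called by limma, 4 of them had an unadjusted p under 0.05, and their median difference was -0.14. Over all genes 0.547% were called, 8.95% had an unadjusted p under 0.05, and the median was 0.006. Their summed level (linear scale) was 123 to 140 in the Jnk1-null arrays, 141 to 177 in the Jnk2-null arrays and 118 to 138 in WT. S100a8, a calprotectin subunit and a defining marker, read 2.78 to 3.54 in the Jnk1-null and 3.34 to 4.19 in the Jnk2-null arrays. All its Jnk1-null and WT values (WT 3 to 3.31) lay below the dim level of 3.69, as did some Jnk2-null values. Ly6g, Cxcr2, Mmp8, Ngp and Ltf lay below the dim level of 3.69 in every array. Their part in the acute phase difference was not tested.

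The promoters of acute phase and metallothionein genes are known for binding sites of C/EBP factors and, in some, of AP-1, the target of JNK. For 5 genes that were higher in the Jnk2-null livers, the 250 bases before the start of the RefSeq gene (GRCm38.p6) are given 5′ to 3′ on the coding strand. They show where the letters of such sites fall, with matches to the C/EBP letters TTGCNNAA or the AP-1 letters TGANTCA on the printed or the opposite strand in capitals and the rest in lower case.
Saa1, chr7:46742981-46743230 (- strand): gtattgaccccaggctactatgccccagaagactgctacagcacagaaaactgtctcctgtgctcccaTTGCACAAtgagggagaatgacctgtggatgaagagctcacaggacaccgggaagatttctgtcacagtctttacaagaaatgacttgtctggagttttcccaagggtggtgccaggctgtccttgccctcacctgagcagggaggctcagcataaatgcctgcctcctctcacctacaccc
Saa2, chr7:46751583-46751832 (+ strand): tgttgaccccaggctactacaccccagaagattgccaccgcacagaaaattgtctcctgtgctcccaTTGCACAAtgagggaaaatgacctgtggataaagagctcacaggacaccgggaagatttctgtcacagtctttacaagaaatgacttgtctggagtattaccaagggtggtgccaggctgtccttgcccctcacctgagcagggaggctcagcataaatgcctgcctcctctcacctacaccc
Steap4, chr5:7960222-7960471 (+ strand): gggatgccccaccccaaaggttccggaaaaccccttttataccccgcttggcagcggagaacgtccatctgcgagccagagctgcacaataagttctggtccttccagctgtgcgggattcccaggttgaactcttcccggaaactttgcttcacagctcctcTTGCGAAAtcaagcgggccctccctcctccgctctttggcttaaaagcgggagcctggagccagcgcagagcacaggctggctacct
Fga, chr3:83025903-83026152 (+ strand): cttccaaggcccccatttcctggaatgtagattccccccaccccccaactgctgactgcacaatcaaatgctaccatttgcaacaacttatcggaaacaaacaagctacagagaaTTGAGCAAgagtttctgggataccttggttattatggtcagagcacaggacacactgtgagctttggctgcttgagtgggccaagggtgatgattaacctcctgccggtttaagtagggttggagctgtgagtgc
Mt2, chr8:94172368-94172617 (+ strand): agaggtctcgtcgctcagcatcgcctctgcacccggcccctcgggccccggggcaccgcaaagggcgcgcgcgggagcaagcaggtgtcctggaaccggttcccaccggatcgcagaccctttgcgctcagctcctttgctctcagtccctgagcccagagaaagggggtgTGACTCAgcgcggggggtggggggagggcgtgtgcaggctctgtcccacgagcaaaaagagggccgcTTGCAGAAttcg
Each of the 5 holds a C/EBP match, the Saa1 and Saa2 promoters the same one, and Mt2 alone holds an AP-1 match. Over 15614 measured genes with a RefSeq promoter, 10% held TTGCNNAA in these 250 bases on either strand. The share was 19.5% among 87 called genes, 34.3% (12 of 35) among those lower in the Jnk1-null livers and 9.62% (5 of 52) among those higher. The AP-1 letters were in 7.12% of all measured genes and 5.75% of the called ones. The letters TTCNNNGAA of STAT sites were in 7.71% of all measured genes, 14.3% of the called genes lower in the Jnk1-null livers and 5.77% of those higher. For TGCNCNC, of metal response elements, these were 51.9%, 62.9% and 50%. These motifs were chosen after the gene values had been seen, and a match is a description of letters, not of binding.

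Several drug metabolism and bile acid genes were lower in the Jnk2-null livers. Of 22 measured drug metabolism genes 4 were called higher in the Jnk1-null livers (Cyp2c37, Cyp2c54, Cyp2c50 and Ces1d) and 1 lower (Abcb1b), with a median difference of 0.26. Of 20 measured bile acid genes Slco1a4 and Akr1d1 were called higher, with a median of 0.21. Over all genes the median was 0.006, and 0.326% were called higher and 0.221% lower in the Jnk1-null livers. Without the female-pattern arrays 2 drug metabolism genes and 0 bile acid genes were called by limma. Against WT, the median bile acid difference was -0.22 on the Jnk1-null and -0.51 on the Jnk2-null side, so both medians lay below WT. For drug metabolism these were 0.02 and -0.29.

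Cyp2c50, a cytochrome P450 of the hepatocyte, read 10.90, 11.03 and 11.19 in the Jnk1-null arrays, 9.36, 9.89 and 10.70 in the Jnk2-null arrays and 10.95 to 11 in WT. The Jnk1-null arrays sat at the WT level and every Jnk2-null array below it (difference 1.03, SE 0.12, limma adjusted p = 0.00121). Cyp2c37, Cyp2c54 and Cyp2c68 differed by 1.69, 1.26 and 0.75. Without the female-pattern arrays, and so with 3 fewer arrays, these were 1.39, 1.23 and 0.65 and were not called (adjusted p = 0.198, 0.128 and 0.144). Slco1a4, an importer of bile acids and drugs, read 7.77, 8.13 and 9.59 against 4.96, 5.81 and 7.77, with WT at 8.82 to 9.14 (5.33-fold, difference 2.41, SE 0.38, limma adjusted p = 0.00951). The lowest Jnk1-null and the highest Jnk2-null array met at 7.77, and the call was lost without the female-pattern arrays (1.88, adjusted p = 0.0781). Akr1d1, the steroid 5-beta-reductase of bile acid synthesis, differed by 0.65 and the carboxylesterase Ces1d by 0.81, and without the female-pattern arrays by 0.58 and 0.78 (adjusted p = 0.0561 and 0.0528).

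Sucnr1, Sugct and the genes that follow were also lower in the Jnk2-null livers. Sucnr1, the receptor for succinate, read 6.31, 7.09 and 8.20 in the Jnk1-null arrays, 4.47, 5.17 and 5.65 in the Jnk2-null arrays and 6.99 to 7.24 in WT (4.33-fold, difference 2.11, SE 0.29, limma adjusted p = 0.00392). Sugct, a glutarate-CoA transferase, read 6.73, 6.91 and 7.74 against 4.24, 5.06 and 6.38, with WT at 7.50 to 7.78 (difference 1.87, SE 0.30, limma adjusted p = 0.0102). Etnppl, which breaks down phosphoethanolamine, differed by 1.14 and Oxsm, of mitochondrial fatty acid synthesis, by 0.71, and both were called in each of the 5 settings. Mug2, a murinoglobulin protease inhibitor, read 11.41, 11.51 and 11.84 against 8.89, 9.46 and 11.35 (1.69, limma adjusted p = 0.0207), with a second probe set at 1.77, and was called in 16 of 28 alternatives (adjusted p up to 0.18). Trim12a, of the TRIM ubiquitin ligase family, differed by 2.04 and was called in 1 of the 5 settings. Adh6-ps1, annotated as an alcohol dehydrogenase pseudogene, differed by 2.84 (limma adjusted p = 0.0324, called in 18 of 28 alternatives), with WT arrays from 4.46 to 8.00. For the lectin-like receptor Clec2h both sides were below WT, by -1.34 on the Jnk1-null and -2.46 on the Jnk2-null side.

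The Jnk1-null side departed from WT in fewer genes. Mme, the membrane peptidase neprilysin, read 7.39, 7.62 and 8.00 in the Jnk1-null arrays, 3.61, 4.31 and 5.35 in the Jnk2-null arrays and 3.32 to 4.48 in WT. Every Jnk1-null array stood above every other array (10.3-fold, difference 3.36, SE 0.23, limma adjusted p = 4.23e-06), and the Jnk1-null minus WT difference was 3.84. Rps3a1, a protein of the small ribosomal subunit, read 7.76, 7.97 and 8.22 against 9.21, 9.72 and 9.82, with WT at 9.32 to 9.63 (3.05-fold, difference -1.61, SE 0.11, limma adjusted p = 4.23e-06). It was the only called gene of 32 measured ribosomal protein genes, whose median difference was 0.02. Asic5, an acid-sensing ion channel family member, read 5.02, 5.18 and 6.34 against 6.46, 7.11 and 8.48, with WT at 7.87 to 8.64 (difference -1.86, SE 0.27, limma adjusted p = 0.00466). Mme and Rps3a1 were called in each of the 5 settings and against WT without any 1 array. Asic5 was not called between the sides without the female-pattern arrays (-1.60, adjusted p = 0.0706).

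Smaller differences had the Jnk1-null side farther from WT without a call against WT. Cltb, a clathrin light chain, read 7.22 to 7.66 in the Jnk1-null, 8.36 to 8.72 in the Jnk2-null and 7.78 to 8.41 in the WT arrays (-0.99, SE 0.11, limma adjusted p = 8.87e-04). Aadac, an esterase of the hepatocyte endoplasmic reticulum, read 10.82 to 11.20, 10.13 to 10.51 and 10.48 to 10.70 (0.68, SE 0.10, limma adjusted p = 0.00421). WT thus lay between the 2 sides for Aadac. Acss3, a mitochondrial acyl-CoA synthetase, and the anion transporter family member Slc26a10 differed by 1.39 and 1.16, with Jnk1-null minus WT at 0.93 and 0.60 and Jnk2-null minus WT at -0.46 and -0.56.

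The difference between the sides was then read apart with NEMO intact (Jnk1 KO minus Jnk2 KO) and with NEMO deleted (the DKO groups). The 2 doubted KO arrays, whose Ikbkg levels lay in the DKO range, count here as NEMO intact by their labels. With 3 arrays a group, 26 genes (0.13%) were called in the first and 21 (0.105%) in the second. All 109 genes had the same sign in both, which their choice by the mean of the 2 favours. The difference of the differences was called for 0 genes (0%) by limma, with 548 at an unadjusted p under 0.05. Gdpd3 differed by -3.83 with NEMO intact and -3.43 with NEMO deleted, Abcb1b by -2.87 and -3.29, Mme by 3.65 and 3.07, and Saa2 by -2.90 and -2.92. Mt2 differed by -4.52 and -1.81, and Slco1a4 by 1.69 and 3.14, and these gaps were not called.

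Without the doubted arrays the difference of the differences was called for 2 genes. Igfbp1, a fasting- and stress-induced binding protein for insulin-like growth factors, differed between the sides by -3.02 with NEMO intact and -0.18 with NEMO deleted (gap 2.84, SE 0.33, limma adjusted p = 0.019). Cyp2c54 differed by 0.27 and 1.77 (gap 1.49, SE 0.20, limma adjusted p = 0.0403). With all arrays these gaps were 2.01 and 1.01 and were not called, and 0 genes were called once the sex term was added or the female-pattern arrays were also left out. Each KO group has 2 arrays without the doubted ones.

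**Figure D3:**
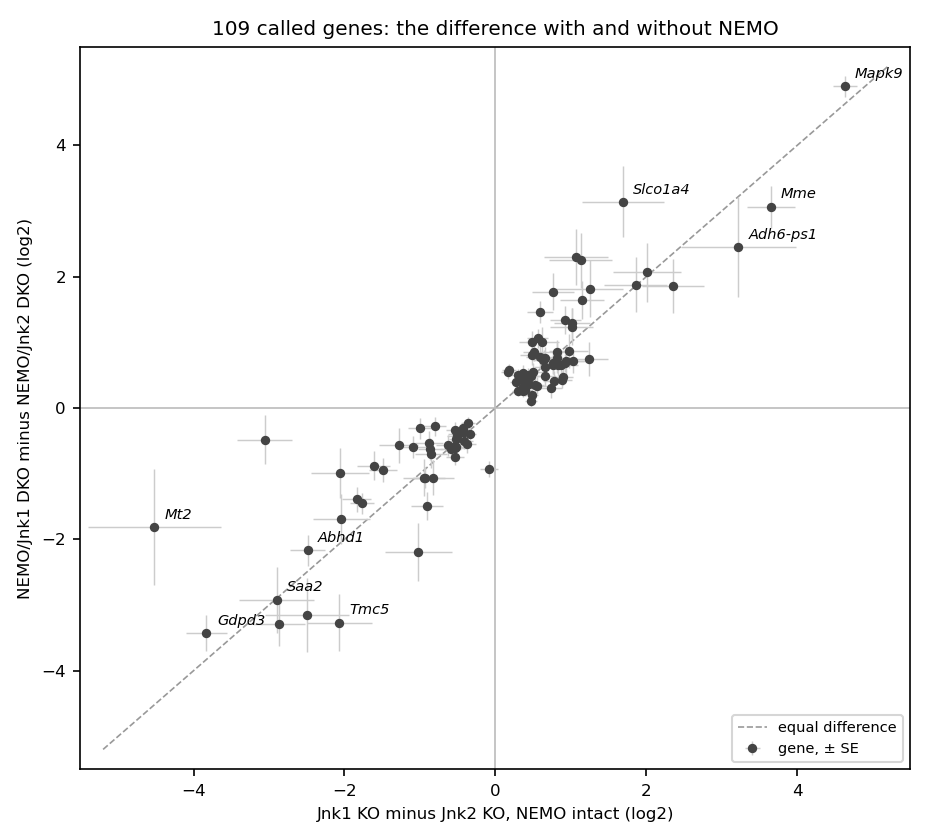
Each point is 1 of the 109 called genes, with the Jnk1 KO minus Jnk2 KO difference on the horizontal axis and the NEMO/Jnk1 DKO minus NEMO/Jnk2 DKO difference on the vertical axis (log2, with SE bars). All points lie in the lower left or upper right, and Mt2 at -4.52 and -1.81 is among those far from the line of equal difference.

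By the order of the 19917 measured genes with a position, 71 of the 109 called genes (65.1%) had another called gene on the same chromosome with at most 50 measured genes between them, in 22 clusters. Of all 19917 genes, 31% had a called gene that near. With at most 25 genes between, 58 called genes (53.2%) lay in 20 clusters, against 18.8% of all genes with a called gene that near. With at most 100 these were 84 (77.1%), 24 clusters and 47.7%. Clusters of 3 or more called genes numbered 10, with 47 genes in all. A cluster starts and ends at a called gene, which raises the share of called genes in it. Chromosomes 3 (15 of 945 measured genes, 1.59%) and 6 (16 of 1101, 1.45%) had the highest shares of called genes, against 0.547% of all genes.

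The cluster with the most called genes was on chromosome 5, with 7 called genes among 51. It held Steap4, Abcb1b and Tmem243 near each other, then Gsap, a gamma-secretase activating protein, 2 provisional gene models and Rint1, of vesicle tethering. Its directions were mixed: Abcb1b and Steap4 were lower in the Jnk1-null livers, while Tmem243 (0.52), Gsap (0.81) and Rint1 (0.68) were higher. On chromosome 3, Aadac, Sucnr1 and Mme lay within 9 measured genes and were all higher in the Jnk1-null livers. A further 6 called genes among 41 followed on the same chromosome, with Asic5, Fga, Fgg and Rps3a1 lower and Tmem144 and Cd1d1 higher. Around Mme, 8 of 200 flanking genes (4%) were called. Mme is itself among the called genes with the largest differences, so this window was centred on a call. The acute phase genes Fga and Fgg thus lie in the same cluster as Rps3a1 and Asic5. Farther along it, Etnppl, Rpl34 (0.76), Adh6-ps1 and the kynurenine aminotransferase Kyat3 (0.99) were called among 61 genes, all higher in the Jnk1-null livers.

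On chromosome 6 a cluster of 6 called genes among 72 held Plbd1 (-0.64), Strap (-0.37), Pik3c2g (-1.22), Slco1a4 (2.41), Tm7sf3 (0.41) and Ppfibp1 (-0.49). All of these were farther from WT on the Jnk2-null side. Another cluster there held Bid, a pro-apoptotic BH3 protein (0.65), Slc6a13 (0.41), Mug2 and the RNA-editing enzyme Apobec1 (-0.65) among 18 genes, and another the neighbours Clec2h and Clec2d. Gene families made up other clusters: Cyp2c68, Cyp2c37, Cyp2c54 and Cyp2c50 on chromosome 19, Akr1c19, Akr1c6 and Akr1c20 beside Sugct on chromosome 13, and Saa1 and Saa2 on chromosome 7. Coq7 and Tmc5 on chromosome 7, and Abhd1 and Atraid on chromosome 5, are near neighbours of unlike families with opposite signs (0.33 and -2.67, and -2.33 and 0.28).

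In a window of 100 measured genes on each side, the neighbours of the deleted Jnk genes were called at about the share of all genes. Over all genes, 0.547% were called and 8.95% had an unadjusted p under 0.05. Among the 100 measured genes on each side of Mapk9 on chromosome 11, 1 of 200 (0.5%) was called, the RNA-binding protein gene Larp1 (0.73, with a second probe set at 0.14), and 8% had an unadjusted p under 0.05. Among those around Mapk8 on chromosome 14, 0 of 200 were called by limma, with 17 at an unadjusted p under 0.05 (8.5%). Larp1, inside the Mapk9 window, also belonged to a cluster on chromosome 11 with Zfp39, Mrpl55, Slc47a1 and Tvp23b, which lay outside that window. This cluster thus ran on from the window and had 5 called genes among 123 (4.07%), with 19 at an unadjusted p under 0.05. Psmd6, Oxsm and Nkiras1 lay together on chromosome 14 among 14 genes.

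**Figure D4:**
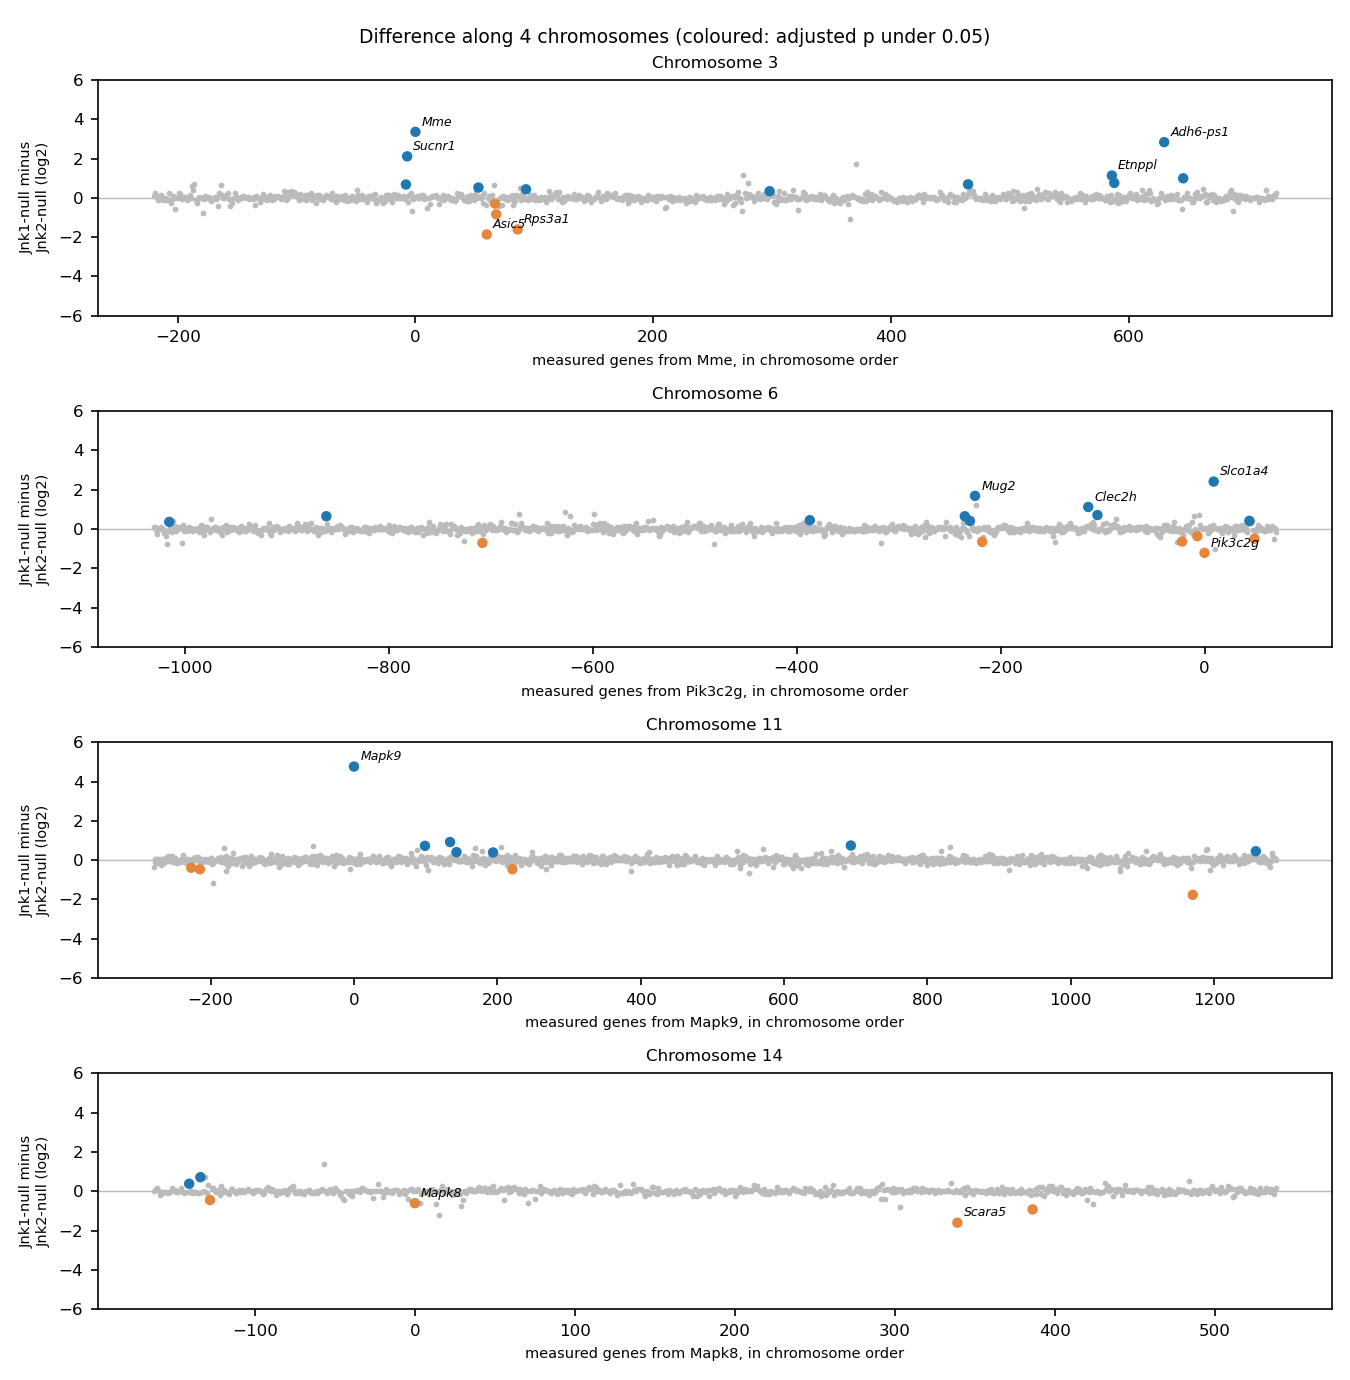
Jnk1-null minus Jnk2-null difference (log2, vertical axis) of every measured gene of chromosomes 3, 6, 11 and 14, in chromosome order counted from the named gene at 0, with called genes in blue (higher in Jnk1-null) or orange (lower). Called genes bunch around Mme on chromosome 3 and near Pik3c2g on chromosome 6, while 1 of the 200 genes nearest to Mapk9 and 0 of the 200 nearest to Mapk8 were called.

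Lists tied to JNK were then read, beside 0.547% of all genes called and 8.95% at an unadjusted p under 0.05. Of 21 measured AP-1 and immediate early genes 0 were called by limma, with 2 at an unadjusted p under 0.05, and their median difference was -0.04. The 2 with the lowest p were Dusp1, a MAP kinase phosphatase (-0.57, limma adjusted p = 0.415), and Btg2 (-0.54, limma adjusted p = 0.555), and Jun itself differed by -0.32 (SE 0.33, limma adjusted p = 0.894). Of 21 kinases and scaffolds upstream of JNK 0 were called, with 6 at an unadjusted p under 0.05, and of 12 dual-specificity phosphatases 0, with 2. Among 11 MAP kinases the called genes were Mapk8 and Mapk9. Of 20 cell death genes Bid was called (0.65, SE 0.11, limma adjusted p = 0.0131), with levels of 5.16 to 5.74 in the Jnk1-null, 4.52 to 5.10 in the Jnk2-null and 5.50 to 5.80 in the WT arrays.

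Single genes were called in other lists, read beside the same shares of all genes (0.547% called, 8.95% at an unadjusted p under 0.05). The antiviral Mx2 was the called gene of 18 interferon-stimulated genes (-0.74, SE 0.12, limma adjusted p = 0.0116), whose median was -0.07. Xbp1, a transcription factor of the unfolded protein response, was the called gene of 17 in its list (-0.39, limma adjusted p = 0.0464), whose median was -0.01, and was called in 8 of 28 alternatives. Of 24 cell cycle genes 0 were called, with 0 at an unadjusted p under 0.05. Female-biased liver genes had a median difference of 0.99 and male-biased ones of -0.40, and without the female-pattern arrays these were -0.05 and 0.32. Of the 16 female-biased and 21 male-biased genes measured, 0 were called by limma with all arrays, with 8 and 5 at an unadjusted p under 0.05.

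**Figure D5:**
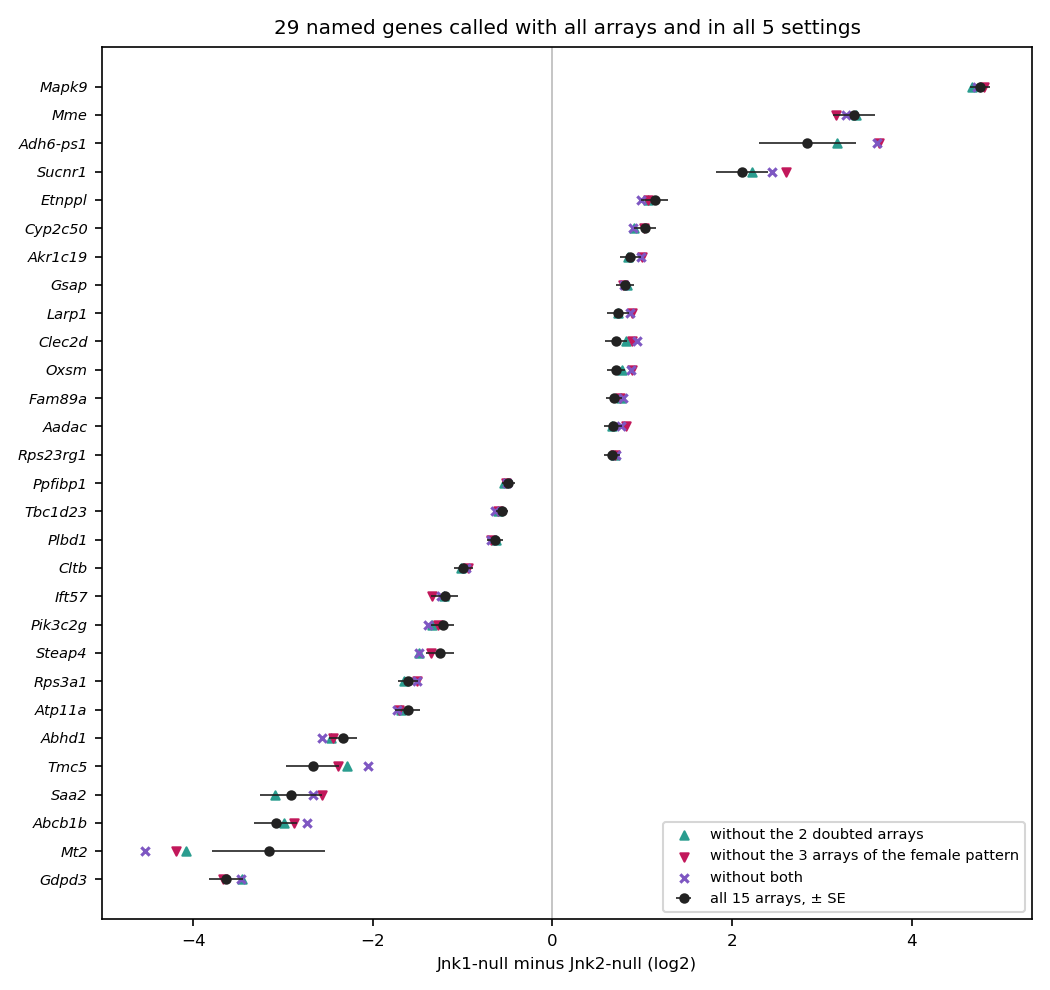
Jnk1-null minus Jnk2-null difference (log2, horizontal axis) of the 29 named genes that were called with all arrays and in each of the 5 settings, with the value and SE from all 15 arrays (black) and the values without the doubted arrays, without the female-pattern arrays and without both. No gene changes direction, and Mt2 moves from -3.16 to -4.08 without the doubted arrays.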

How the data were processed

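Whole-liver RNA of 15 mice was hybridised to 1 Affymetrix array each. What the authors deposited are log2 expression levels; the submitters' processing notes name RMA and no version. Base 2 was inferred from the range. Genome build and summarisation settings are not given in the sources used here. RMA pulls the distributions of the arrays together, so a shift of most genes would be removed.

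Of 35556 probe sets, 21789 had 1 gene symbol, 1621 several and 12146 were not listed in the platform table. The probe set with the highest mean stood for each of 19938 genes. Array medians lay between 4.26 and 4.38, and the number of arrays limits the precision. Pearson correlations between arrays were 0.976 to 0.991, with 0 identical pairs.

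Differences were tested with limma 3.58.1 in R 4.3.3 (1 mean per group, all 15 arrays, eBayes, 10 residual and 3.75 prior degrees of freedom), with Benjamini-Hochberg adjustment over all genes and no minimal fold. Gene order and promoters came from RefSeq GRCm38.p6. In simulated data with 200 changed genes among 19938, 73.1% of changes of 0.5, 98.5% of those of 1 and 100% of those of 2 were recovered, with 10 unchanged genes called. The simulated noise was independent and normal, with an equal shift in all Jnk1-null arrays. It did not copy the doubted or female-pattern arrays, so recovery in the real data may be lower. Figures used Python 3.11.15 and matplotlib 3.10.9.

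The comparison, the members and the 31 gene lists (570 symbols, 509 measured) were chosen with earlier results of these data known. Named genes are Mapk8, Mapk9 and Ikbkg, the 15 highest and 15 lowest called genes whose sides do not overlap, called genes in clusters, and up to 4 called members per list or, with none called, the 2 of lowest p. Provisional gene models, small RNAs and olfactory receptors are not named. Lcn2, Mt1, Hp, Jun, Ly6d and Mmp12 fall outside this rule and were chosen after their values were seen. Ly6g, Cxcr2, Mmp8, Ngp and Ltf also fall outside it and are named as the neutrophil markers below the dim level in every array.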

Additional observations from a re-analysis of the deposited data

Results flagged for a closer look

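In 5 of 152 groups of 6 arrays, 1 array lay far from the others (gap over range above 0.625), where chance gives about 1 in 20. Mug2 read 11.84 in NEMO/Jnk1 DKO replicate 2 against 11.41 to 11.56 in the other Jnk1-null arrays. Serpina11, a serpin of the liver, stood at 8.99 in Jnk2 KO replicate 2, with the remaining Jnk2-null arrays at 7.95 to 8.15. Gsap read 7.58 in Jnk1 KO replicate 2 against 7.25 to 7.37. Camk2b, a calcium-dependent kinase subunit, read 4.85 in Jnk2 KO replicate 3 (a doubted array) against 5.17 to 5.32, and Akr1c20 read 10.13 in NEMO/Jnk2 DKO replicate 3 against 9.88 to 9.95.

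Probe sets outside the gene table also differed between the sides when tested apart. Of 12146 without a listed gene 12 were called by limma (0.0988%, 6 higher and 6 lower in the Jnk1-null livers), and of 1621 with several symbols 20 (1.23%, 5 higher and 15 lower).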

How the results depend on the processing

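The count of 109 genes was 68 with a minimal fold of 1.5, 223 without the doubted arrays, 59 without the female-pattern arrays and 67 to 174 without 1 array (67 without NEMO/Jnk2 DKO replicate 1, 174 without Jnk1 KO replicate 1). It was also moved by over 1.5 times without Jnk1 KO replicate 2 or NEMO/Jnk1 DKO replicate 1 (72 each), NEMO/Jnk1 DKO replicate 2 (71), Jnk2 KO replicate 2 (68) and NEMO/Jnk2 DKO replicates 2 and 3 (69 each). The 7 genes of Jnk1-null against WT were 3 with the replicate block, 106 without the doubted arrays, 2 with the sex term, 19 with both changes, 2 without the female-pattern arrays, 20 without both kinds, and 2 to 16 without 1 array. The 430 of Jnk2-null against WT were 1152, 762, 1134, 879 and 1020 in the 5 settings, and 64 (without WT replicate 2) to 1154 (without Jnk1 KO replicate 1) without 1 array. With NEMO intact, 26 became 119 without the doubted arrays, 111 with the sex term as well, 57 without the female-pattern arrays and 103 without both, and 10 to 104 without 1 array. With NEMO deleted, 21 became 64 without the doubted arrays and 9 to 33 without 1 array. This count also fell without the female-pattern arrays, a setting that keeps only replicate 3 of the NEMO/Jnk1 DKO group. The difference of the differences gave 0 genes, 2 without the doubted arrays and 0 to 2 without 1 array. The cause was not tested. Other settings kept the count of 109 within 1.5 times, between 76 (sex term) and 153 (array weights). Quantile normalization again split it 58 to 46, and centring 54 to 47. Of 2127 values of the 76 named called genes under these alternatives, 1609 kept their call, 518 lost it and 0 changed sign.

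Replicate numbers did not pair the samples: of 30 pairs with the same number 4 correlated above 0.1 (range -0.39 to 0.30). The replicate block left 82 genes, 77 of them among the 109.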
